A study of Bos taurus with 22 samples.

Results

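The 29 genes described here are long noncoding RNA (lncRNA) genes of bovine white blood cells. They are the genes of biotype lncRNA among the 1401 annotated rows used here, of 27607 Ensembl genes in the count file. Those rows hold the genes with the smallest p-values of a Fertile against Sub-Fertile comparison of the same libraries, so the 29 were chosen by that contrast, and the other lncRNA genes were not analysed here. The same rows hold 1361 protein-coding genes and 11 pseudogenes. None of the 29 carries a gene symbol (0 of 29), and each is given by its identifier and its position in the ARS-UCD1.2 cattle assembly.

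Long noncoding RNAs are transcripts longer than short RNAs such as microRNAs that hold no long open reading frame. Many are spliced and polyadenylated like messenger RNAs, and many are held in the nucleus, where some act on the transcription of neighbouring genes, some bind chromatin proteins and some have no known activity. They are known in many tissues, blood cells included, for lower abundance and narrower cell type patterns than messenger RNAs. No activity is known from the annotation for any of the 29.

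White blood cells were taken from 22 heifers, 1 library each. The Angus heifers, a beef breed, averaged 14 months and received a progesterone insert (CIDR) for 7 days, and the Holstein heifers, a dairy breed, averaged 12 months and received it for 5 days. Fertile heifers (5 Angus, 5 Holstein) had a calf from the first insemination. Sub-Fertile heifers (7 Angus, 5 Holstein) failed repeatedly: the Angus after 2 inseminations and exposure to a bull, and the Holstein after at least 4 inseminations or without ever becoming pregnant. The cells were a buffy coat freed of red cells, a mixture of leukocytes with some platelets, and fewer cells of a type and less RNA per cell cannot be told apart in such libraries. Breed, age and the length of progesterone treatment differed together and cannot be told apart either.

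Total counts ran from 12182400 to 49228035 per heifer (median 23158374). Libraries were made from polyadenylated RNA with a strand-marking kit, but the strand setting of the counting is not given, so reads of overlapping or adjoining genes on opposite strands may have been shared. Each heifer is named by its group and its number in the labels. Of the marker genes listed for blood cell types, 8 of 71 had a name in the annotated rows used here, in 4 of 9 lists. Among them CSF3R, the receptor for granulocyte colony-stimulating factor and a neutrophil marker, had 113 to 510 CPM (counts per 1000000) over all heifers, and BANK1, a B cell scaffold protein, had 238 to 512 CPM. The other neutrophil genes named, MMP9 and PGLYRP1, were low, with 0.366 to 4.84 and 0.839 to 3.08 CPM. The monocyte, T cell, natural killer cell, red blood cell and interferon lists had 0 named genes and give no check.

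Heifers did not all stand equally far apart. In 8 pairs, found in the data, each heifer was the other's nearest and their libraries differed by a biological coefficient of variation (BCV, the spread beyond counting noise) of 0.0378 to 0.0829, beside 0.0981 to 0.261 in the other 223 pairings. Heifer 5 paired with 6, 1 with 11, 8 with 12, 7 with 16, 10 with 18, 15 with 19, 14 with 20 and 13 with 22. No pair fell within a group (0 of 8), 4 ran across the breeds and 6 across the phenotypes. The 5 genes with the smallest breed p, the 5 with the smallest interaction p and the 5 with the largest fertility fold changes are also given with the pairs as blocks or with 1 heifer of each pair left out, which leaves 14 heifers. The descriptions of abundance and spread are over all 22.

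All 29 genes had counts in every heifer and all 29 passed the filter of CPM above 1 in at least 5 heifers, which left 13535 genes. In 16 of them CPM was above 1 in every heifer. The 29 lay on 20 chromosomes, with 4 on chromosome 4 and 3 each on chromosomes 18 and 19. Annotated transcripts were 258 to 1861 bases long (median 1211), shorter than the median of 2200 for protein-coding genes of the same rows, and the genes spanned 1029 to 73653 bases (median 5109). In 1 gene, ENSBTAG00000049992, the span equalled the transcript length, so that its annotation holds no intron.

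The lncRNA genes were low in abundance next to their protein-coding companions. The median of their mean CPM was 3.08, against 35.4 for the protein-coding genes of the same rows and 27.5 for all genes tested. Per kilobase of transcript, which corrects for their shorter length, the medians were 3.60 and 16.4 CPM per kb. Mean CPM was under 2 in 12 of 29 (41.4%), beside 2.94% of protein-coding genes of the same rows and 10.3% of all genes tested. Mean CPM was above 10 in 6 of 29, and 2 genes reached the median abundance of all genes tested. Together the 29 took 0.0243% to 0.0521% of a heifer's counts (median 0.0305%). By group this share had a median of 0.0429% in Holstein Sub-Fertile heifers, 0.0290% in Angus Sub-Fertile, 0.0255% in Angus Fertile and 0.0254% in Holstein Fertile heifers.

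**Figure D1:**
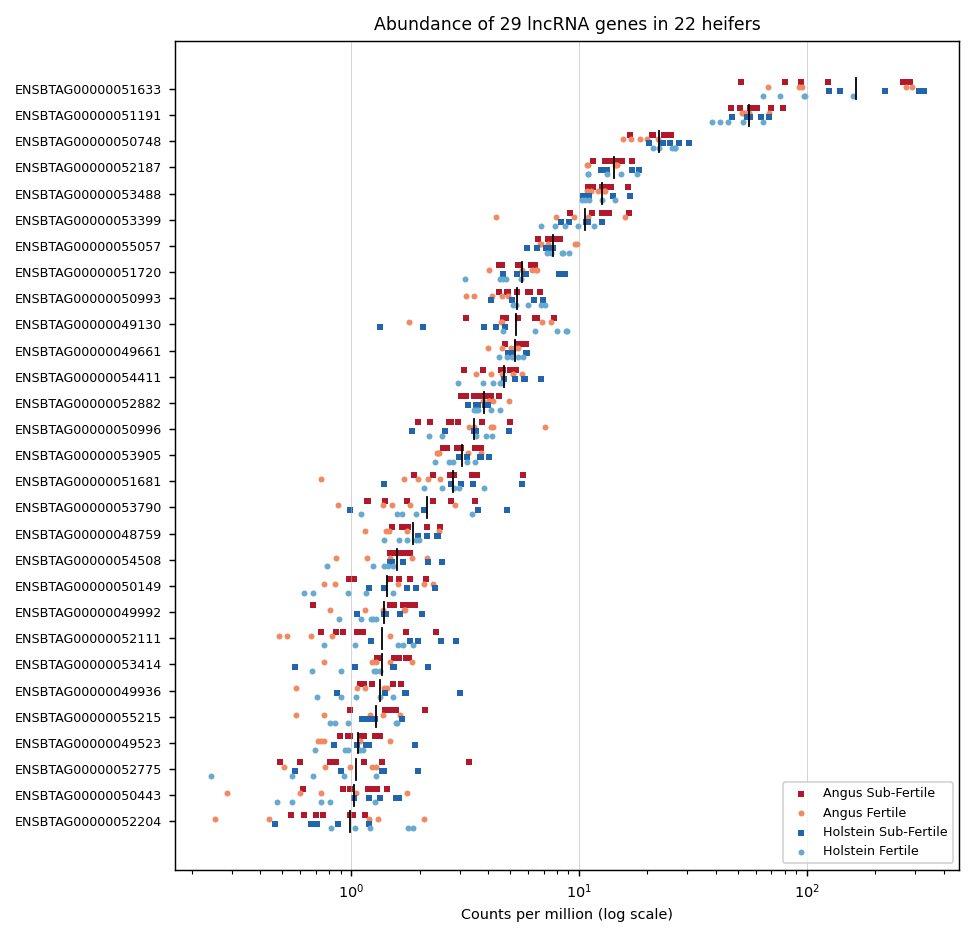
CPM (log axis) of each of the 29 lncRNA genes in each of 22 heifers, coloured by group, with the mean over heifers as a black line. Genes are ordered by mean CPM, from 165 for ENSBTAG00000051633 down to 0.987 for ENSBTAG00000052204, with the most spread in ENSBTAG00000051633.

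A single gene made up a large part of the lncRNA signal. ENSBTAG00000051633 (chr4:111758120-111785171, transcript of 582 bases) had a mean of 165 CPM and 283 CPM per kb, and it took 18.9% to 66.6% (median 40.8%) of the counts of all 29. It was also the most variable of them. In Angus Sub-Fertile heifers its CPM had a lowest value of 51.7, a median of 125 and a highest value of 285, and in Angus Fertile heifers it was 68.0, 92.8, 95.8, 273 and 291. Holstein Sub-Fertile heifers had 125, 141, 221, 311 and 327 CPM, and Holstein Fertile heifers had 64.1, 76.6, 97.8, 98.5 and 160 CPM. High and low heifers were thus found in both Angus groups, 3 Angus Sub-Fertile and 2 Angus Fertile heifers standing at 266 CPM or above and no Angus heifer between 125 and 266 CPM, while the Holstein groups overlapped only from 125 to 160 CPM.

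The spread of ENSBTAG00000051633 followed the close pairs. Its SD within groups was 0.825 on the log2(CPM + 0.5) scale, larger than in 98.1% of all genes tested, and its BCV was 3.18 times the trend for genes of its abundance. Between the heifers of a close pair the median absolute difference was 0.144 on that scale, and between other heifers it was 0.953. The exception was the pair of Holstein heifers 5 and 6, with 125 and 64.1 CPM, a difference of 0.96. Over all 29 genes the median absolute difference was 0.155 in close pairs (range over pairs 0.105 to 0.321) and 0.290 in the others (0.147 to 0.734), although 136 of the 223 other pairings lay at or below the highest close pair. Of the 16 heifers in close pairs, 11 were nearest to their own partner when the 29 genes alone were compared. These are descriptions, and the part of the pairs in the group differences was not tested beyond the values given with and without them.

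The next most abundant lncRNA genes were steadier. ENSBTAG00000051191 (chr29:43612214-43614028) had a mean of 56.1 CPM and ranged from 38.3 in Holstein Fertile heifer 10 to 78.9 in Angus Sub-Fertile heifer 17. ENSBTAG00000050748 (chr16:1581030-1588613), with the longest transcript of the 29 at 1861 bases, had a mean of 22.5 CPM and a range of 15.7 to 30.4. ENSBTAG00000052187 (chr5:22470723-22473989) had a mean of 14.3 CPM (10.8 to 18.4) and ENSBTAG00000053488 (chr19:39929799-39938923) of 12.7 CPM (10.3 to 16.8). Their highest heifer stood 2.06, 1.94, 1.70 and 1.63 times above their lowest. On the per-kilobase scale the order changed in part, with 43.0 CPM per kb for ENSBTAG00000051191, 12.3 for ENSBTAG00000052187, 12.1 for ENSBTAG00000050748 and 7.75 for ENSBTAG00000053488. ENSBTAG00000053905 (chr4:31551687-31554228), whose transcript has 269 bases, had 3.08 CPM and 11.4 CPM per kb, so that its rank by CPM rested on its length.

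On the log scale the lncRNA genes spread more within groups than other genes did. The median SD within groups was 0.285 on the log2(CPM + 0.5) scale, against 0.183 for protein-coding genes of the same rows and 0.210 for all genes tested. When the BCV was divided by the trend at each gene's abundance, the medians were 0.737, 0.696 and 0.735. Above the trend stood 7 of 29 lncRNA genes (24.1%), 21.7% of protein-coding genes of the same rows and 24.7% of all genes tested. By this measure the spread of the lncRNA genes was near that of other genes of like abundance.

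**Figure D2:**
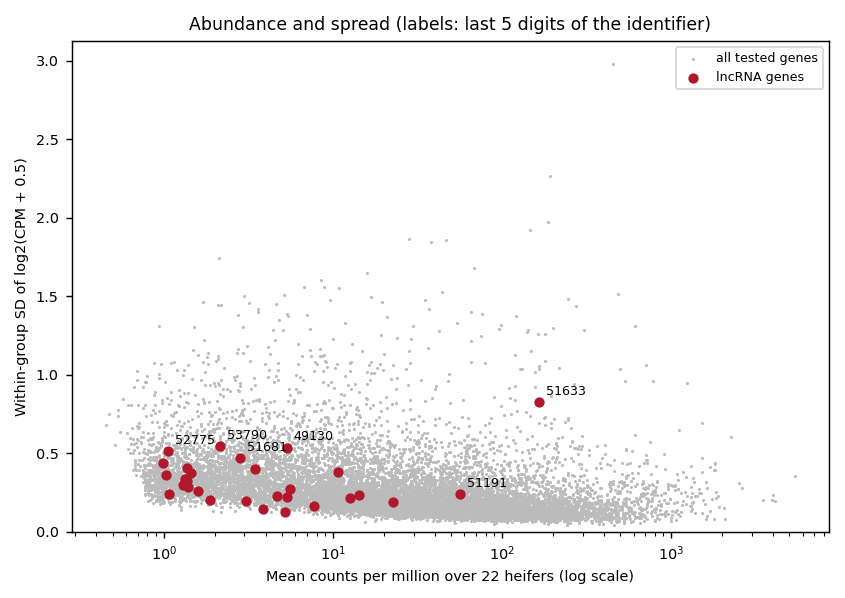
Mean CPM over 22 heifers (log axis) against the SD of log2(CPM + 0.5) within groups, for 13535 genes tested (grey) and the 29 lncRNA genes (red, with the last 5 digits of the identifier for the 5 largest SDs and the 2 most abundant). Most lncRNA genes sit at the left, at low abundance, and ENSBTAG00000051633 stands apart with 165 CPM and an SD of 0.825.

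After ENSBTAG00000051633, the largest SDs belonged to 4 genes of low abundance. ENSBTAG00000053790 (chr12:22400962-22449671) had an SD of 0.543 and ranged from 0.876 CPM in Angus Fertile heifer 22 to 4.84 in Holstein Sub-Fertile heifer 2. ENSBTAG00000049130 (chr1:53561497-53563094) had an SD of 0.535 and 1.35 to 8.87 CPM. ENSBTAG00000052775 (chr10:101830189-101834706) had an SD of 0.514 and 0.242 to 3.29 CPM, the latter in Angus Sub-Fertile heifer 17, whose group otherwise had 0.486 to 1.37 CPM. At the other end of its range 3 reads were counted, so that value is known only loosely. ENSBTAG00000051681 (chr3:12615376-12631769) had an SD of 0.468, with 0.739 CPM in Angus Fertile heifer 21 and 5.70 CPM in Angus Sub-Fertile heifer 17. The steadiest was ENSBTAG00000049661 (chr24:3483236-3485623), with an SD of 0.124 and 4.001 to 5.94 CPM.

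The remaining genes are given by position and range. ENSBTAG00000053399 (chr23:27507452-27514505) had 4.35 to 16.6 CPM, ENSBTAG00000055057 (chr10:85904732-85945067) had 5.93 to 9.79, and ENSBTAG00000051720 (chrX:37483665-37488773) had 3.17 to 8.69. ENSBTAG00000050993 (chr18:47099300-47125426) had 3.20 to 7.08 CPM, ENSBTAG00000054411 (chr19:33231187-33237924) had 2.94 to 6.84, and ENSBTAG00000052882 (chr7:16752338-16775155) had 3.03 to 4.95. ENSBTAG00000050996 (chr13:57376272-57378447) had 1.86 to 7.09 CPM. These genes had at least 32 counts in the heifer with fewest. Each of the others had a mean under 2 CPM and lowest counts of 6 to 18. ENSBTAG00000048759 (chr9:91607111-91630248) had 1.15 to 2.46 CPM, ENSBTAG00000054508 (chr8:61508010-61540553) had 0.787 to 2.50, and ENSBTAG00000050149 (chr23:31920734-31925267) had 0.622 to 2.34. ENSBTAG00000049992 (chr19:44017094-44018122) had 0.684 to 2.05 CPM, ENSBTAG00000052111 (chr25:10029228-10045143) had 0.484 to 2.90, and ENSBTAG00000053414 (chr18:57527731-57530481) had 0.566 to 2.17. ENSBTAG00000049936 (chr4:77210122-77215166) had 0.572 to 3.01 CPM, ENSBTAG00000055215 (chr11:99342885-99345379) had 0.575 to 2.11, and ENSBTAG00000049523 (chr18:60751023-60754774) had 0.698 to 1.91. ENSBTAG00000050443 (chr22:9887448-9891979) had 0.286 to 1.77 CPM and ENSBTAG00000052204 (chr4:98476141-98549793), the widest span with the shortest transcript, had 0.253 to 2.10.

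Breed was compared because it was not used to choose the genes. No lncRNA gene passed the threshold after adjustment over all genes tested (0 of 29, lowest adjusted p = 0.437, edgeR quasi-likelihood test), and neither did any other gene in that test (0% of 13535). At an unadjusted p under 0.05 there were 3 of 29 lncRNA genes, all higher in Holstein, beside 10.6% of all genes tested, a share of the same size. Among the protein-coding genes of the same rows the share was 19.6%, so the rows used here differ from all genes in breed p as well. DESeq2 gave 0 lncRNA genes after adjustment (lowest adjusted p = 0.0751), while 15 of all genes (0.111%) passed. It sets no adjusted value for genes with low mean counts, the other 2 genes named next among them. How many of the 29 had an adjusted value was not counted, so this is not 0 of 29 adjusted genes. Unadjusted, DESeq2 gave 3 of 29, beside 12.9% of all genes and 23.9% of the protein-coding genes of the same rows. In both tools these were ENSBTAG00000050748, ENSBTAG00000052111 and ENSBTAG00000050993. Of the 29 log2 fold changes 14 were below 0 and their median was 0.02, so the lncRNA genes had no common direction by breed.

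ENSBTAG00000050748 had the smallest breed p. In Angus heifers its CPM was 16.7 to 25.3 with a median of 21.2 among Sub-Fertile and 15.7, 16.99, 18.6, 19.9 and 22.2 among Fertile heifers. Holstein Sub-Fertile heifers had 20.4, 23.5, 25.2, 27.4 and 30.4 CPM and Holstein Fertile heifers had 21.1, 22.6, 25.7, 26.4 and 26.5 CPM. The breeds overlapped from 20.4 to 25.3 CPM, with 5 Holstein heifers above every Angus and 5 Angus heifers below every Holstein. The log2 fold change of Holstein over Angus was 0.30 (SE 0.082, unadjusted p = 0.0015, adjusted p = 0.437, edgeR), and the exact two-sided permutation test of breed within fertility groups gave p = 0.00234 over 199584 regroupings. Leaving out the higher-numbered heifer of each close pair gave 0.34, and leaving out the lower-numbered one 0.29. Taking the pairs as blocks gave 0.08 (unadjusted p = 0.383, edgeR), a fit in which the 4 pairs that join the breeds carry the difference. Among these, heifers 8 with 12 and 7 with 16 also differ in phenotype, so pairs that differ in phenotype alone enter the estimate too.

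ENSBTAG00000052111 had the largest breed difference of the 29. Angus Sub-Fertile heifers had 0.741 to 2.36 CPM with a median of 1.07, and Angus Fertile heifers had 0.484, 0.524, 0.670, 0.825 and 1.48. In Holstein heifers the values were 1.23, 1.82, 1.98, 2.47 and 2.90 CPM among Sub-Fertile and 0.761, 1.04, 1.61, 1.70 and 1.86 among Fertile heifers. The breeds overlapped, although 9 of 10 Holstein heifers lay above the Angus median of 0.892 CPM. The log2 fold change was 0.80 (SE 0.232, unadjusted p = 0.0023, adjusted p = 0.437, edgeR), the exact permutation p was 0.00494, and with the pairs as blocks the fold change was 0.20 (unadjusted p = 0.423, edgeR). Because its counts were low, the difference on the log2(CPM + 0.5) scale was smaller, at 0.56. ENSBTAG00000052111 had an unadjusted p under 0.05 in 8 of 10 other settings (edgeR or DESeq2) and in 22 of 22 fits with 1 heifer left out.

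ENSBTAG00000050993 came next. Its mean was 5.49 ± 0.822 CPM (SD, n = 7) in Angus Sub-Fertile, 4.06 ± 0.718 (n = 5) in Angus Fertile, 5.77 ± 1.14 (n = 5) in Holstein Sub-Fertile and 6.07 ± 0.859 (n = 5) in Holstein Fertile heifers. The breed log2 fold change was 0.31 (SE 0.119, unadjusted p = 0.0173, edgeR, exact permutation p = 0.0166) and fell to 0.04 with the pairs as blocks. The next 2 in order did not pass and depended on single heifers. ENSBTAG00000053790 had 0.43 (SE 0.267, unadjusted p = 0.118, edgeR), with 0.29 without Holstein Sub-Fertile heifer 2 and 0.54 (unadjusted p = 0.0437, edgeR) without Holstein Sub-Fertile heifer 4. It had 0.55 and 0.12 without the higher- and the lower-numbered heifers of the pairs. ENSBTAG00000053399 had −0.23 (SE 0.155, unadjusted p = 0.160, edgeR), with −0.31 (unadjusted p = 0.0244, edgeR) without Angus Fertile heifer 21 and −0.13 without Angus Fertile heifer 22. Under the pairs as blocks it was at −0.39 (unadjusted p = 0.00175, edgeR) and made up the 1 of 29 at an unadjusted p under 0.05, beside 1.72% of all genes tested. With the higher- or the lower-numbered heifers left out instead it was at −0.04 and −0.11.

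The interaction of breed and fertility asked whether the Fertile against Sub-Fertile difference was of another size in Holstein than in Angus heifers, which the choice of genes did not use directly. It passed in no lncRNA gene after adjustment (0 of 29, lowest adjusted p = 0.463, edgeR), beside 0% of all genes tested, and DESeq2 also gave 0 of 29 and 0% of all genes. At an unadjusted p under 0.05 there were 4 of 29 (13.8%) by edgeR and by DESeq2, beside 10.4% and 12.2% of all genes tested. Among the protein-coding genes of the same rows the shares were 5.73% and 6.98%. The edgeR count was 5 (all genes 17.8%) without the higher-numbered and 1 (13.4%) without the lower-numbered heifer of each close pair. It was 1 (9.61%) without Angus Fertile heifer 20 and 2 (9.8%) without Holstein Sub-Fertile heifer 1.

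ENSBTAG00000049130 had the smallest interaction p. Its Holstein Sub-Fertile heifers had 1.35, 2.06, 3.84, 4.32 and 4.74 CPM, and its Holstein Fertile heifers had 4.64, 6.40, 7.99, 8.82 and 8.87. Among Angus the Sub-Fertile heifers ran from 3.20 to 7.81 CPM with a median of 5.38, and the Fertile heifers had 1.81, 4.54, 4.59, 6.87 and 7.57. The Holstein groups touched only where Sub-Fertile heifer 5 (4.74 CPM) lay above Fertile heifer 8 (4.64 CPM), while the Angus groups overlapped over most of their range. The interaction was 1.30 on the log2 scale (SE 0.464, unadjusted p = 0.0107, adjusted p = 0.463, edgeR), and it was 2.98 and 1.40 without the higher- and the lower-numbered heifer of each pair (unadjusted p = 0.00193 and unadjusted p = 0.0577, edgeR). With the higher-numbered heifers left out Angus Fertile holds 1 heifer, number 21, which had the lowest CPM of its group.

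In 3 further genes the unadjusted interaction p was under 0.05. ENSBTAG00000054411 had 4.52 ± 0.787 CPM (SD, n = 7) in Angus Sub-Fertile and 4.61 ± 0.835 (n = 5) in Angus Fertile heifers, against 5.66 ± 0.790 (n = 5) and 4.003 ± 0.672 (n = 5) in the Holstein groups. Its Holstein Sub-Fertile heifers, at 4.71 CPM and above, all exceeded the Holstein Fertile heifers, at 4.58 CPM and below. The interaction was −0.54 (SE 0.227, unadjusted p = 0.0271, edgeR), and it stayed under 0.05 in 18 of 22 fits with 1 heifer left out, not without heifer 1, 10, 20 or 22. Without the higher- and the lower-numbered heifers of the pairs it was −0.50 and −0.35, neither under 0.05. ENSBTAG00000051720, on the X chromosome, had −0.59 (SE 0.253, unadjusted p = 0.0283, edgeR), with 4.64 to 8.69 CPM in Holstein Sub-Fertile and 3.17 to 5.57 in Holstein Fertile heifers. It too stayed under 0.05 in 18 of 22 fits, not without heifer 2, 3, 8 or 20, and was −0.75 and −0.85 without the higher- and the lower-numbered heifers, the second of them under 0.05. ENSBTAG00000050993 had 0.48 (SE 0.219, unadjusted p = 0.0401, edgeR), and its p was under 0.05 in 12 of 22 fits with 1 heifer left out. The log2 interaction ran from 0.38 without heifer 1 to 0.56 without heifer 3. Without the higher- and the lower-numbered heifers it was 0.63 and 0.42, neither under 0.05. ENSBTAG00000050149 followed with −0.84 (SE 0.432, unadjusted p = 0.0643, edgeR), and was −1.57 and −1.01 in those 2 fits, the second not under 0.05. Without the higher-numbered heifers Angus Fertile holds 1 heifer, number 21. Without the lower-numbered ones Holstein Fertile holds heifers 6 and 9 only.

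**Figure D3:**
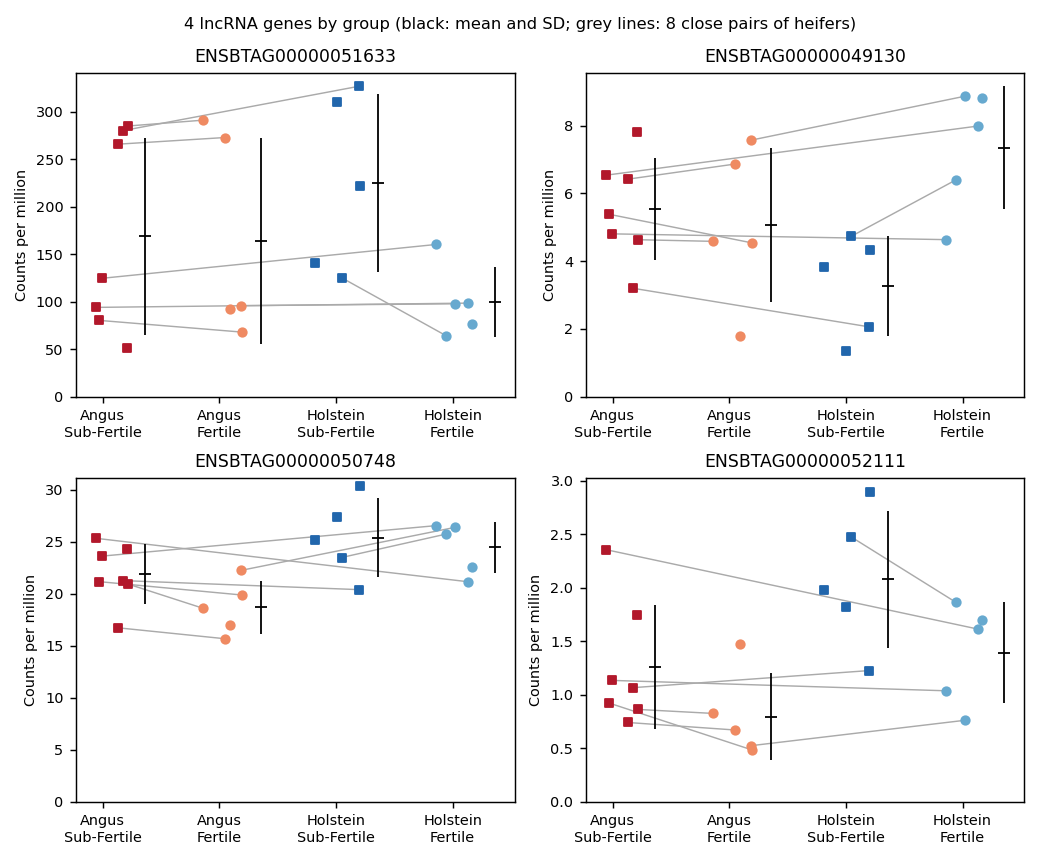
CPM in each heifer for the most abundant lncRNA gene (ENSBTAG00000051633), the gene with the smallest interaction p (ENSBTAG00000049130) and the 2 with the smallest breed p (ENSBTAG00000050748, ENSBTAG00000052111), by group, with mean and SD in black and grey lines joining the 8 close pairs. The Holstein Sub-Fertile points of ENSBTAG00000049130 lie between 1.35 and 4.74 and the Holstein Fertile points between 4.64 and 8.87, and the steepest line of ENSBTAG00000051633 joins heifers 5 and 6.

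The fertility contrast chose the genes, so it is given as a description without a test. Unadjusted edgeR p-values of the 29 in that contrast lay between 0.0108 (ENSBTAG00000052111) and 0.139 (ENSBTAG00000050996), and genes outside the annotated rows were not analysed here. In 24 of 29 the fold change was below 0 on the log2 scale, lower in Fertile heifers, beside 51% of all genes tested and 42.5% of the protein-coding genes of the same rows. Their median log2 fold change was −0.26. With the close pairs as blocks, 22 of these 24 were below 0 again and ENSBTAG00000053488 and ENSBTAG00000054411 were not, and the median moved to −0.10. With CPM above 1 asked of at least 11 heifers 27 genes remained and 23 were below 0. In every other alternative run the 24 were below 0 again. These fits reuse the libraries that chose the genes, so a steady direction adds no support. The protein-coding share of 42.5% was also unchanged with each heifer left out. With the pairs as blocks, the 6 pairs that join a Fertile with a Sub-Fertile heifer carry the difference. Among these, heifers 8 with 12 and 7 with 16 also differ in breed.

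The largest fertility differences were found in low or variable genes. A small p in this contrast chose the genes, so those with larger SEs needed larger fold changes to be included. ENSBTAG00000052111 had a log2 fold change of −0.66 (SE 0.236), with a mean of 1.26 CPM in Angus Sub-Fertile and 0.796 in Angus Fertile heifers, and of 2.08 and 1.39 CPM in the Holstein groups. ENSBTAG00000051633 had −0.55 (SE 0.345), and on the log2(CPM + 0.5) scale Fertile minus Sub-Fertile was −0.03 in Angus and −1.14 in Holstein heifers, with an interaction of −1.14 (SE 0.658, unadjusted p = 0.0984, edgeR) that did not pass. ENSBTAG00000052775 had −0.54 (SE 0.314), which was −0.27 without Angus Sub-Fertile heifer 17, its highest. ENSBTAG00000051681 had −0.51 (SE 0.234). For ENSBTAG00000051681 the difference was −0.67 in Angus and −0.09 in Holstein heifers on the log2(CPM + 0.5) scale. With the pairs as blocks the 4 fold changes were −0.43, −0.19, −0.05 and −0.43 in the order given.

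In 5 of the 29 Fertile heifers had the higher level. ENSBTAG00000052204 had a log2 fold change of 0.53 (SE 0.285), which was 0.34 without Angus Fertile heifer 18 and reversed to −0.16 with the pairs as blocks. Its CPM was 0.543 to 1.16 in Angus Sub-Fertile heifers and 0.253, 0.436, 1.199, 1.31 and 2.10 in Angus Fertile heifers. Holstein Sub-Fertile heifers had 0.465 to 1.202 CPM and Holstein Fertile heifers 0.815 to 1.87, so that the groups overlapped in both breeds. The others were ENSBTAG00000049130 with 0.48, ENSBTAG00000050996 with 0.30, ENSBTAG00000055057 with 0.14 and ENSBTAG00000052882 with 0.14.

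**Figure D4:**
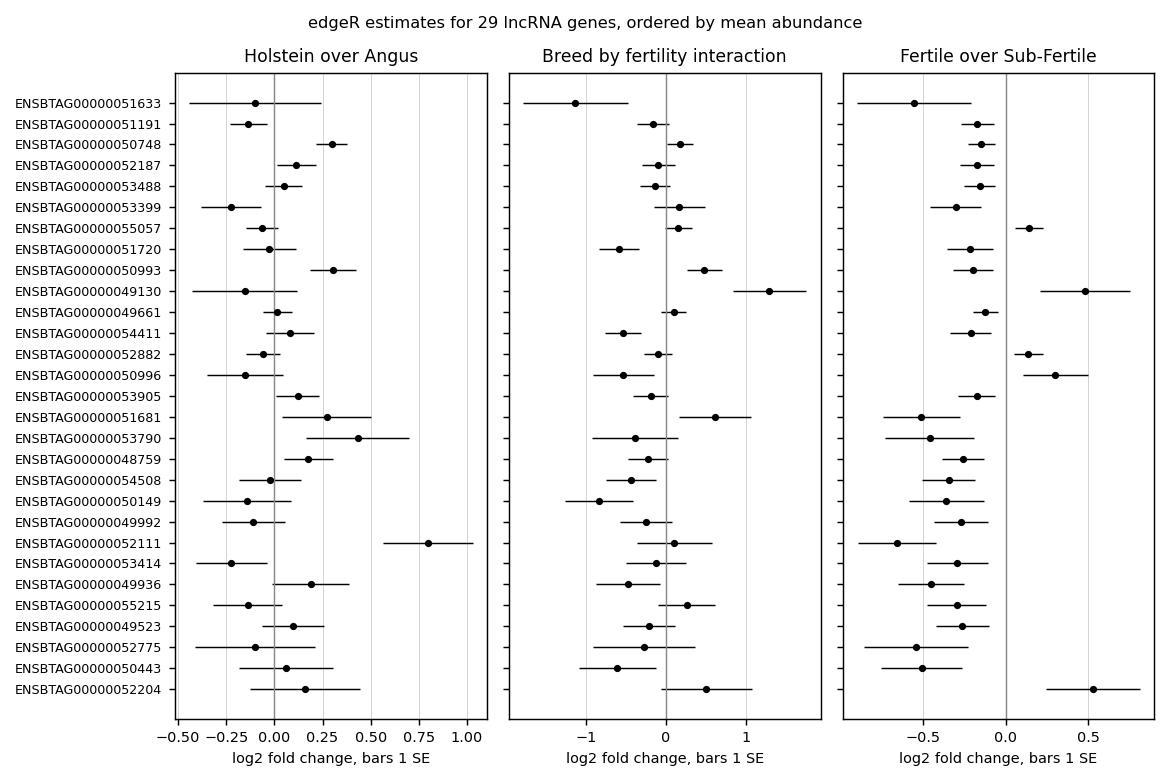
edgeR log2 fold changes with 1 SE for the 29 lncRNA genes, ordered by mean abundance, for Holstein over Angus, for the breed by fertility interaction and for Fertile over Sub-Fertile. The breed values fall on both sides of 0 (14 of 29 below), and 24 of 29 fertility values lie below 0, a contrast by which the genes were chosen.

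Levels of the lncRNA genes were next set beside blood cell markers, with both centred within the 4 groups so that breed and fertility differences were taken out. Of 116 correlations with the 4 marker lists, 1 passed at an adjusted p under 0.05, a count that was 6 without Angus Sub-Fertile heifer 16, 2 without Holstein heifer 4 or 10 and 0 without Angus Fertile heifer 22. ENSBTAG00000052204 rose and fell with the platelet list, GP9 and ITGA2B, which encode parts of the platelet receptors for von Willebrand factor and fibrinogen. Pearson's r was 0.757 (permutation p = 7.00e-05, adjusted p = 0.00812) and Spearman's rho was 0.747 (adjusted p = 0.0116, permutation). Angus Fertile heifer 22, lowest in ENSBTAG00000052204 at 0.253 CPM, was also lowest in GP9 at 0.622 CPM. Without heifers 21 and 22, farthest from the median of the list, r was 0.66. With heifer 22 alone left out the adjusted permutation p was 0.0899, and it was 0.519 at most in the other 5 settings, of which 3 passed. Over the heifers left out in turn r was 0.647 to 0.811, and in the other settings 0.658 to 0.818. With the platelet list the median absolute r was 0.196 over the 29 genes and 0.231 over all genes tested. With the eosinophil and basophil list the 29 were lower too (0.149 against 0.175). With the neutrophil list (0.228 against 0.185) and, slightly, with the B cell list they were higher. How many of all genes tested would pass with a list was not counted.

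The platelet list had a summed level of 33.8 to 50.6 CPM in Angus Sub-Fertile heifers, 33.1 to 68.8 in Angus Fertile, 33.8 to 47.2 in Holstein Sub-Fertile and 37.5 to 73.1 in Holstein Fertile heifers. GP9 had 0.622 to 5.91 CPM and ITGA2B 32.5 to 69.2 CPM over all heifers, so the sum was mostly ITGA2B. The correlation used the mean of their log2 levels instead, in which both genes count alike. It was not computed for each gene alone. The part of the platelet list in the fertility difference of ENSBTAG00000052204 was not tested. ENSBTAG00000053790 came second for this list with r = 0.572 (permutation p = 0.00562, adjusted p = 0.124). The neutrophil list was the mean log2 level of CSF3R and the low genes MMP9 and PGLYRP1. With it the strongest were ENSBTAG00000050443 (r = 0.549, permutation adjusted p = 0.124) and ENSBTAG00000055057 (r = 0.542, permutation adjusted p = 0.124). With BANK1 they were ENSBTAG00000054508 (r = 0.57, permutation adjusted p = 0.124) and ENSBTAG00000050443 (r = 0.530, permutation adjusted p = 0.124). The eosinophil and basophil genes CCR3 and FCER1A gave at most r = 0.476, for ENSBTAG00000052187 (permutation adjusted p = 0.192), followed by ENSBTAG00000052204 (r = 0.47, permutation adjusted p = 0.192).

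Neighbouring genes were compared because many lncRNA genes share promoters or chromatin with the gene beside them. Only the 1401 annotated rows could be searched, so a nearer gene outside them is possible. Within them a gene lay at most 100 kb from 7 of the 29. No distant genes were matched to these 7, so whether a correlation is particular to neighbours was not tested. Among 6145 correlations of the 5 most abundant lncRNA genes with named genes, 1317 had an unadjusted permutation p under 0.05. The closest of the 7 neighbours was ZNF175, which encodes a zinc finger protein, 1.35 kb from ENSBTAG00000053414. Over the 22 heifers, centred within groups, the 2 genes had r = 0.71 (permutation p = 0.00018, adjusted p = 0.00126) and rho = 0.762 (adjusted permutation p = 0.000910), and r was 0.781 without the 2 heifers farthest from the median of ZNF175. This pair passed in each of the 27 alternatives (22 of 22 heifers left out in turn, 5 of 5 other settings), with a highest adjusted permutation p of 0.0150. ENSBTAG00000053414 had 1.37 CPM and ZNF175 10.0 CPM on average.

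UBTF, which encodes a transcription factor of RNA polymerase I at ribosomal RNA genes, lay 4.06 kb from ENSBTAG00000049992. The correlation was r = 0.588 (permutation p = 0.00376, adjusted p = 0.0132) and rho = 0.610, and r was 0.686 without the 2 farthest heifers. It rested in part on Angus Fertile heifer 18, without which the adjusted permutation p was 0.0606, and it passed in 3 of 5 other settings. UBTF had 443 CPM on average against 1.40 CPM for the lncRNA gene. Since the strand setting is not given, sharing of reads between these neighbours was not tested.

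The other 5 neighbours did not pass by Pearson's r. They were FRMD8, a partner of the iRhom proteins, at 8.89 kb from ENSBTAG00000051191 (r = −0.13), and RMI2, part of the complex that resolves DNA recombination intermediates, at 34.6 kb from ENSBTAG00000052111 (r = −0.40, adjusted permutation p = 0.111). ENSBTAG00000050130, a protein-coding gene without a symbol, lay 47.3 kb from ENSBTAG00000050748 (r = −0.03). ZNF529, a zinc finger gene, lay 92.4 kb from ENSBTAG00000050993, with r = 0.440 (adjusted permutation p = 0.0936) and rho = 0.517 (adjusted permutation p = 0.0323). DZIP3, which encodes a ubiquitin ligase, lay 94.5 kb from ENSBTAG00000049130 (r = 0.209).

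**Figure D5:**
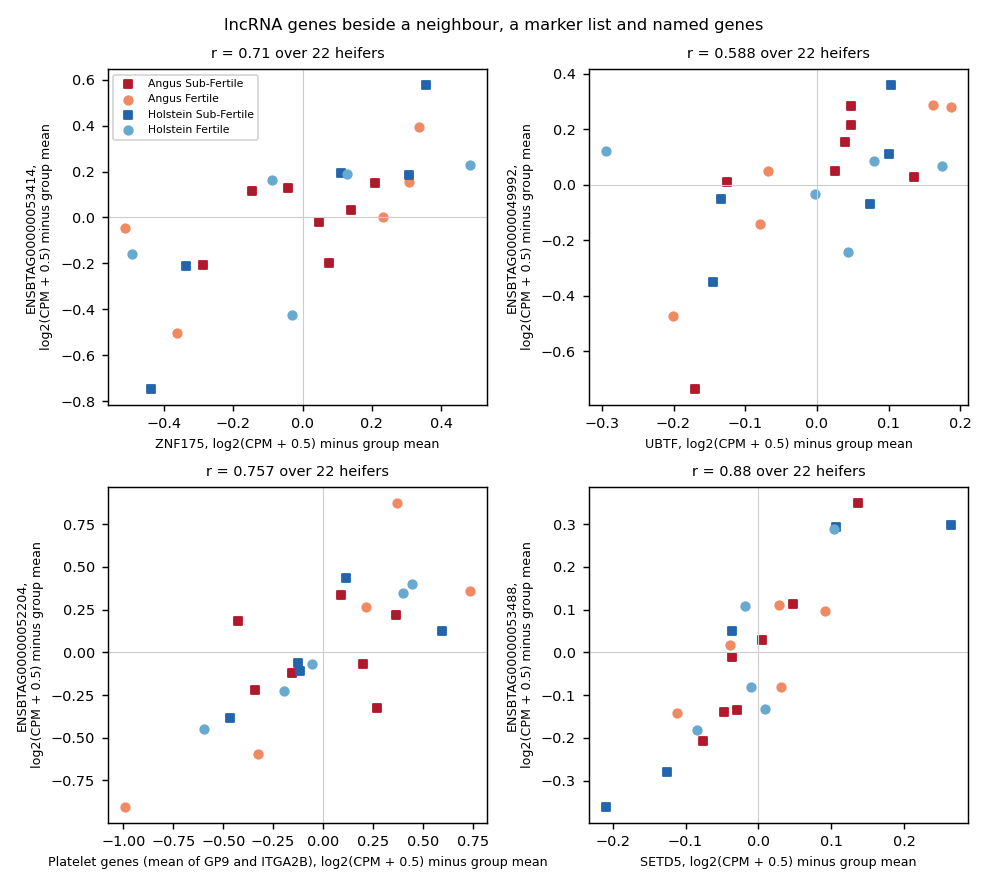
Level of a lncRNA gene (vertical) against that of its neighbour ZNF175 or UBTF, of the platelet genes GP9 and ITGA2B, or of SETD5 (horizontal), each as log2(CPM + 0.5) minus the mean of its group, in 22 heifers coloured by group. SETD5 is no neighbour by position: it was picked for the largest r with ENSBTAG00000053488 among 1229 named genes. The points rise together with r of 0.71, 0.588, 0.757 and 0.880, and heifer 22 forms the lowest point of the platelet panel.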

How the data were processed

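Raw read counts per Ensembl gene were deposited for 22 heifers, 1 library each, in 4 groups of breed and phenotype. The authors aligned reads with HISAT2 to ARS-UCD1.2, filtered them with SAMtools (both named in the submitters' processing notes), removed duplicates with biobambam2 and counted with featureCounts; versions are not given in the sources used here. Biotype, position and transcript length came from the annotation rows of the supplementary files. Those rows were ordered by a fertility p, and the authors' fold changes and p-values in them were not used here.

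Genes with CPM above 1 in at least 5 heifers (13535 of 27607) were fitted with edgeR 4.0.16 (R 4.3.3; quasi-likelihood, robust, library sizes as summed counts, no scaling factors) on breed and fertility, and again with their interaction, with Benjamini-Hochberg adjustment over all genes tested. DESeq2 1.42.0, TMM factors, other filters, pairs as blocks and left-out heifers were alternatives. Exact permutations of breed used 199584 regroupings. Correlations used 100000 resamples and log2(CPM + 0.5) centred within groups, computed in Python 3.11.15 with scipy 1.17.1. The fits were tested on simulated counts. Each CPM rests on 12182400 to 49228035 counts per heifer. P-values measure the spread between heifers, and heifers in close pairs may not be independent.

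The members and gene lists were chosen with earlier results of these data known. Named are the 5 members with the highest mean CPM, the 5 with the largest SD within groups, the 5 smallest breed p, the 5 smallest interaction p, the 5 largest fertility fold changes, up to 2 per marker list, and members within 5 kb of a measured gene. Other members are given by position and range.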

Additional observations from a re-analysis of the deposited data

Results flagged for a closer look

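Within each group, a heifer was picked out where its gap to the nearest other heifer was large for the whole range of the group (Dixon's ratio above its 95% critical value). Of 116 groups (29 genes in 4 groups) 3 held such a heifer, and about 5% of groups are picked out by chance. ENSBTAG00000051191 had 68.3 CPM in Angus Fertile heifer 22, above the 52.1 to 55.6 CPM of the other 4 heifers of that group. ENSBTAG00000049992 had 0.684 CPM in Angus Sub-Fertile heifer 16, below the 1.49 to 1.90 CPM of the other 6. ENSBTAG00000049661, the steadiest of the 29 genes, had 4.74 CPM in Angus Sub-Fertile heifer 11, below the 5.35 to 5.85 CPM of the other 6.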

How the results depend on the processing

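No paired analysis was possible because heifers carry numbers that differ between groups, and the blocks used here are close pairs found in the data. The adjusted counts of lncRNA genes for breed and interaction were 0 in every alternative run, although DESeq2 gave some lncRNA genes no adjusted breed value. The unadjusted breed count of 3 fell to 1 with close pairs as blocks and was 3 to 4 with each heifer left out in turn. Of these 3 genes, ENSBTAG00000052111 stayed under 0.05 in 8 of 10 settings other than single heifers left out. The unadjusted interaction count of 4 was 5 without the higher-numbered and 1 without the lower-numbered heifer of each close pair, and 1 to 4 with each heifer left out. With the higher-numbered heifers left out 31 of all genes tested, and 0 lncRNA genes, passed the adjusted interaction test, a fit in which Angus Fertile holds 1 heifer. The marker-list count of 1 was 2 without centring, 0 without either the higher- or the lower-numbered heifers of the pairs, and 0 to 6 with each heifer left out, with 6 without Angus Sub-Fertile heifer 16, 2 without Holstein heifer 4 or 10 and 0 without Angus Fertile heifer 22. The nearest-gene count of 2 was 1 with TMM factors and 1 without the higher-numbered heifers, and 1 to 3 with each heifer left out, the 1 without Angus Fertile heifer 18. The fertility log2 fold change of ENSBTAG00000052204 reversed to −0.16 with close pairs as blocks, as did the direction of 2 of the 24 genes lower in Fertile heifers. The cause of these changes was not tested. The filter on CPM over TMM effective library sizes was chosen after seeing the data and gave the same breed, interaction and fertility counts. Lowest counts of 3 to 18 reads limit the values of genes under 2 CPM.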

Other observations

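Likeness to named genes was computed after the other results were known, for the 5 most abundant lncRNA genes against the 1229 named genes of the annotated rows, with all levels centred within the 4 groups. Of 6145 correlations, 186 passed at an adjusted p under 0.05 (permutation, 1000000 resamples) and 1317 had an unadjusted p under 0.05. The partners given are the 3 with the largest r in either direction for each lncRNA gene. The heifers include close pairs, so r was also computed over the 14 heifers left without the higher- or without the lower-numbered heifer of each pair. The numbers of partners given below count the correlations that passed over all 22 heifers, close pairs included. They were not counted again over 14 heifers, where not all of these partners kept a permutation p under 0.05. Other genes of like abundance were not set against the same 1229 genes. Whether any of these numbers is large for a gene of its abundance was therefore not tested.

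ENSBTAG00000053488 had the most partners, 84, of which 71 rose with it and 13 went the other way. Its closest were SETD5, a SET domain chromatin protein (r = 0.880, adjusted permutation p = 0.00246, rho = 0.880), HECTD4, a HECT domain ubiquitin ligase (r = 0.848, rho = 0.849), and CHD2, a chromatin remodeller (r = 0.846, rho = 0.834). Without the 2 heifers farthest from the partner's median these r were 0.869, 0.790 and 0.841, and over 14 heifers they were 0.755 to 0.917. The 13 that went the other way had r from −0.726 (PSMB3) to −0.639 (UQCR10). ENSBTAG00000052187 had 41 partners, 32 with it and 9 against it. Its closest were DNMT3B, a de novo DNA methyltransferase (r = 0.804, adjusted permutation p = 0.00307, rho = 0.842), and CCNL1 and PNISR, which encode nuclear proteins linked to splicing (r = 0.789 and 0.771, rho = 0.793 and 0.791). Over 14 heifers the 3 had r of 0.738 to 0.923.

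ENSBTAG00000050748 had 44 partners, 37 with it and 7 against it. Its closest were EFR3A, a plasma membrane scaffold (r = 0.819, adjusted permutation p = 0.00307, rho = 0.809), PPP6R3, a regulatory subunit of protein phosphatase 6 (r = 0.819, rho = 0.774), and SMAD5, which carries bone morphogenetic protein signals (r = 0.789, rho = 0.781). Over 14 heifers the 3 had r of 0.578 to 0.848. Not all of the 44 held without the lower-numbered heifers of the pairs. SRSF10 then had r = 0.402 (permutation p = 0.155) and UBL3 had r = 0.365 (permutation p = 0.197), while KCNK1 had r = 0.892. ENSBTAG00000051191 had 2 partners, OGA, the enzyme that removes O-linked N-acetylglucosamine (r = 0.835, adjusted permutation p = 0.00246, rho = 0.836, and r = 0.779 without the 2 farthest heifers), and ELF2, an ETS family transcription factor (r = 0.667, adjusted permutation p = 0.0329, rho = 0.763). Over 14 heifers these had r of 0.626 to 0.860. Next was SNRPB, a core protein of the spliceosome, which did not pass (r = −0.630, adjusted permutation p = 0.0526).

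ENSBTAG00000051633 had 15 partners, 11 with it and 4 against it. The closest were SPRING1, which takes part in the activation of sterol regulatory proteins (r = 0.739, adjusted permutation p = 0.0119, rho = 0.715), SH3BGRL (r = 0.735, adjusted permutation p = 0.0141, rho = 0.678) and UBAP2 (r = 0.705, adjusted permutation p = 0.0220, rho = 0.752), with r of 0.569 to 0.902 over 14 heifers. The 4 that went the other way were GATA3, a transcription factor of T cells (r = −0.701), SYCP2 (r = −0.662), the kinase gene JAK2 (r = −0.661) and ERAP2 (r = −0.646), with adjusted permutation p of 0.0241 to 0.0443. Without the lower-numbered heifers of the pairs JAK2 had r = −0.508 (permutation p = 0.0596). Among the 29 lncRNA genes themselves, 0 of 406 pairs passed at an adjusted p under 0.05 and 77 had an unadjusted permutation p under 0.05. The highest r was 0.712, between ENSBTAG00000052187 and ENSBTAG00000053488 (adjusted permutation p = 0.0514, rho = 0.726), and the median over the 406 pairs was 0.120.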
